A study of Homo sapiens with 6 samples.

Results

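The enzymes of glycolysis and gluconeogenesis were described on the exon array in HepG2, a human hepatoblastoma cell line that stands in for hepatocytes in many studies. The list held 37 genes: the enzymes from hexokinase to lactate dehydrogenase, the pyruvate dehydrogenase subunits PDHA1 and PDHB with the pyruvate dehydrogenase kinases, the regulators GCKR and PFKFB1 to PFKFB4, and the enzymes particular to gluconeogenesis. A gene was measured where a transcript cluster of the array carried its symbol alone, which was the case for 30 of the 37, among 12676 genes measured in this way. *TPI1*, *GAPDH*, *PGK1*, *PGAM1*, *LDHA* and *FBP2* had no such cluster and were not analysed here. *PDK2* was measured only by 2 clusters that also carry *SAMD14*. The 3 control samples were HepG2 cells without the drug, and the 3 treated samples received 10 µM atorvastatin for 24 h, an inhibitor of HMG-CoA reductase and thereby of cholesterol synthesis. Both groups were kept in medium with lipoprotein deficient serum in place of fetal bovine serum, so that cholesterol synthesis was active in the controls as well. All samples were triplicate wells of 1 cell line. The study calls them biological replicates and does not say whether the wells were seeded from separate cultures, so the spread behind the *p*-values is that among these wells and may be partly technical.

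Glycolysis breaks glucose down to pyruvate, and gluconeogenesis, a task of the liver and the kidney, runs the shared reversible steps backwards and bypasses the irreversible ones with enzymes of its own. Many steps have isozymes that differ between tissues. The liver is known for glucokinase, aldolase B and the pyruvate kinase gene *PKLR*, and hepatoma cells for hexokinase 2 and the pyruvate kinase gene *PKM*. Pyruvate is the link to lipid synthesis, since the mitochondrial pyruvate dehydrogenase turns it into acetyl-CoA, from which fatty acids and cholesterol are built. The comparison of treated with control cells therefore asks whether the drug altered transcripts of the pathway that supplies this carbon.

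Each value is a log2 expression value per transcript cluster and array, where a difference of 1 is a doubling. Genes are read by different probes, so a brighter signal does not show a more abundant transcript, and log2 levels serve here only to mark signals that are dim. Array medians ranged from 6.66 to 6.72. The 7 measured hepatocyte lineage markers, among them *ALB* and *AFP*, had mean values from 9.56 to 11.85. All 5 endothelial markers were under 6, a level taken here as dim. Of 6 fibroblast markers 3 were dim and the highest, *COL1A1*, was at 7.19. Of 3 leukocyte markers, *PTPRC* and *CD3E* were dim and *CD68* was at 8.25. Control replicate 1 and atorvastatin replicate 3 had a smaller spread of values (SD 1.945 and 1.952) than the other 4 arrays (SD 2.005 to 2.042), and dim clusters were often highest on them. The differences of dim members are therefore also given without these arrays.

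With the replicate number as a block in limma, 0 of the 30 enzyme genes passed the Benjamini-Hochberg correction over all 12797 clusters tested (adjusted *p* = 1 for every member), and 0 clusters did so on the whole array (background 0%, smallest adjusted *p* = 0.535). At an unadjusted *p* under 0.05 there were 3 members, *ALDOC*, *PFKFB4* and *PFKFB1*, and 127 clusters. Without the block 0 members passed, where 4 of the 12797 clusters did. With a trended and robust variance 1 member, *ALDOC*, passed beside 20 other clusters (background 0.164%). In 5 members, *ALDOC*, *PFKFB4*, *PFKFB1*, *LDHB* and *PCK2*, every atorvastatin array was above every control array, where 4.57% of all clusters showed this. In 0 members was every atorvastatin array below every control array, where 2.68% of all clusters showed this. Of the 30 members, 26 were higher on average in treated cells, where 55.8% of all clusters were. The median log2 difference was 0.05 over the members and 0.01 over all clusters. Both moved when a replicate was left out, to 0.0879 and 0.0504 without replicate 1 and to 0.0336 and −0.016 without replicate 3. The list was chosen with earlier results of these data known, so these counts describe it and are no test of it.

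**Figure D1:**
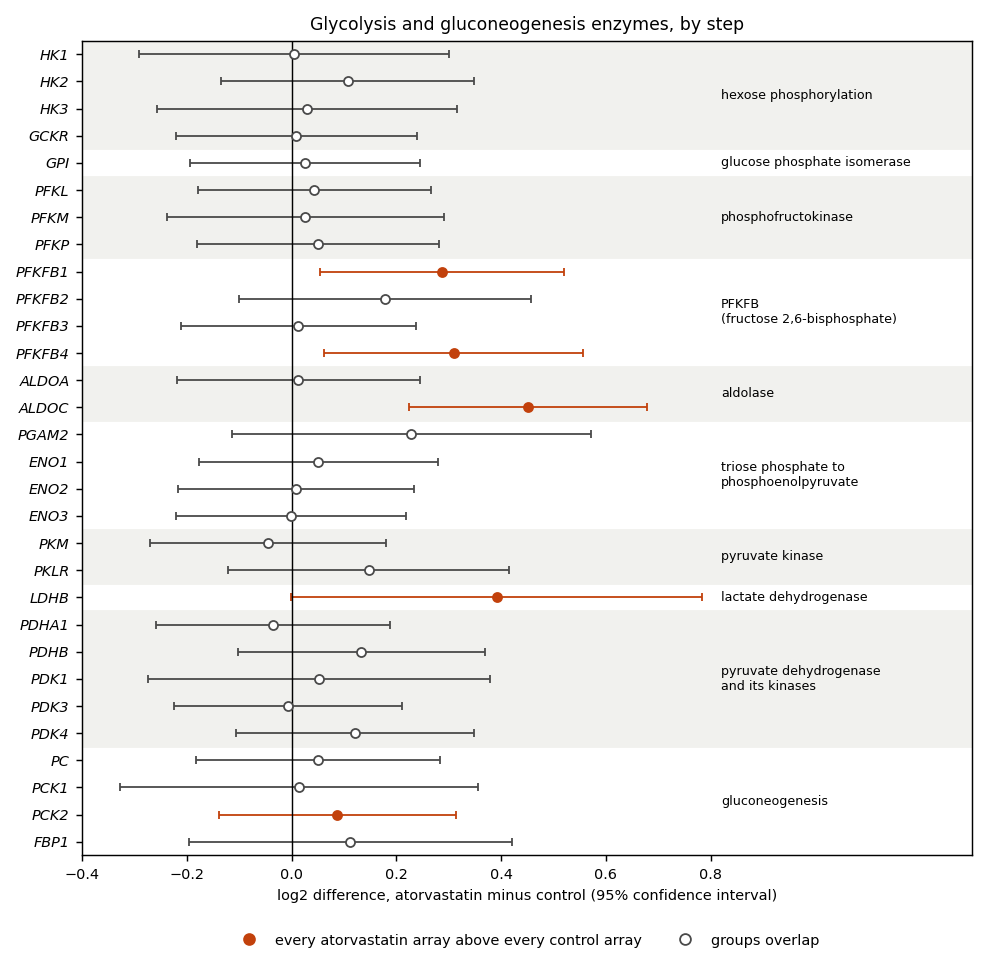
Log2 difference between atorvastatin-treated and control cells (x axis, mean with 95% confidence interval from limma with the block, 3 arrays per group) for the 30 measured genes, ordered by step of the pathway. Filled points mark the 5 genes with every atorvastatin array above every control array, and the interval lies above 0 in *ALDOC*, *PFKFB4* and *PFKFB1* only.

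The largest difference among the members was in *ALDOC*, which encodes aldolase C, the aldolase best known from brain, which splits fructose 1,6-bisphosphate into 2 triose phosphates. Its log2 values were 8.54, 8.56 and 8.59 on the control arrays and 8.91, 9.09 and 9.04 on the atorvastatin arrays. The groups were apart by more than the spread within either of them (SD 0.023 in control and 0.096 in treated cells, n = 3 each). The difference was 0.45 (95% confidence interval 0.22 to 0.68), which is 1.37-fold (1.17-fold to 1.60-fold). It did not pass the correction with the block (limma, adjusted *p* = 1) and passed with a trended and robust variance (limma, adjusted *p* = 0.029). A two-sided exact permutation test over the arrays, without the block, gave *p* = 0.1, which is the lower limit for 3 against 3 arrays. Any gene whose groups do not overlap gives this value, so it adds nothing to the separation itself. Of the 12797 clusters, 25 had a larger increase. With arrays or replicates left out in turn, the difference stayed between 0.41 and 0.50. *ALDOC* is also named by the study from RNA-seq of the same samples and was on the list for its function, so its direction on the array is not independent evidence.

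The other measured aldolase showed no such separation. *ALDOA*, the aldolase of muscle and of most growing cells, had log2 values of 11.68, 11.58 and 11.52 in control and 11.57, 11.66 and 11.58 in treated cells. The groups overlapped, and the difference was 0.01 (95% confidence interval −0.22 to 0.24). On each array the value of *ALDOC* was therefore set against that of *ALDOA*, where the difference between groups can be read but not the level. *ALDOC* minus *ALDOA* was −3.13, −3.02 and −2.93 on the control arrays and −2.66, −2.56 and −2.55 on the atorvastatin arrays. These groups did not overlap and differed by 0.44. Aldolase B, the form of adult liver, was not analysed here.

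The sequence before the RefSeq start of *ALDOC* is shown because it held, alone among the members with a window, a match to TCACNCCAC, a consensus form of the sterol regulatory element bound by SREBP, the transcription factor family that statins are known to activate. The 250 bases before the start (GRCh38.p14, chr17:28576896-28577145, minus strand) are printed 5′ to 3′ beside those of *PFKFB4* (chr3:48556804-48557053, minus strand), the member with the next largest difference outside the dim range, with matches on either strand to TCACNCCAC, to the E-box CACGTG and to the GC box GGGCGG in capitals.
ALDOC: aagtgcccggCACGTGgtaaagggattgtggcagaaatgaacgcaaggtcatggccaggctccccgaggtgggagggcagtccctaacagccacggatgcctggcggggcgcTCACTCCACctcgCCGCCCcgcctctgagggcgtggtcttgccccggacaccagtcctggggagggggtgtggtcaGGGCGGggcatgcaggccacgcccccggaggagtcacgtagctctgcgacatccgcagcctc
PFKFB4: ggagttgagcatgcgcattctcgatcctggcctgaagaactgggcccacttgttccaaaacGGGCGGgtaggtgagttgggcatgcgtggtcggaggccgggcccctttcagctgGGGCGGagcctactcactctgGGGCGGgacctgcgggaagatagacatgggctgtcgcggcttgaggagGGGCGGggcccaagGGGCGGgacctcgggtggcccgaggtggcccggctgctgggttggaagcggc
In *ALDOC* the match reads TCACTCCAC, with its first base 138 bases before the start. Of the 35116 windows of this length in the RefSeq table, 0.883% held TCACNCCAC on either strand, and 28 of the 30 measured members had 53 windows there. The search used 5 motifs on both strands and was made with the differences known. CACGTG was in 6 of the 53 windows of members, where 6.34% of all windows held it. ACGTG, which also matches inside CACGTG, was in 16 of the 53, where 18.5% of all windows held it. CCAAT was in 20 of the 53 (32.0% of all windows) and GGGCGG in 28 (42.6% of all windows). These windows belonged to 6, 13, 17 and 21 members. A member can have several windows, so a count of members does not compare with a share of windows. *PFKFB4* held 5 matches to GGGCGG and 0 to TCACNCCAC. In the windows of *PFKFB1* there were 0 matches to TCACNCCAC, CACGTG or GGGCGG. A match describes letters and does not show a site in use.

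The 4 PFKFB genes encode the enzymes that make and break down fructose 2,6-bisphosphate, the signal that speeds phosphofructokinase and slows fructose bisphosphatase, and in 2 of them every atorvastatin array was above every control array, as in 4.57% of all clusters. *PFKFB4*, a form with high kinase activity described in testis and in tumours, had log2 values of 6.924, 6.767 and 6.695 in control and 7.105, 7.036 and 7.174 in treated cells. The lowest treated array was above the highest control array by less than the SD in control and more than the SD in treated cells (0.12 and 0.069, n = 3 each). The difference was 0.31 (95% confidence interval 0.06 to 0.56), or 1.24-fold, and ranged from 0.23 to 0.37 with arrays or replicates left out. *PFKFB4* too is named by the study from RNA-seq of the same samples.

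*PFKFB1*, the bifunctional form of liver and muscle that glucagon signalling switches towards phosphatase activity, had log2 values of 6.12, 6.27 and 6.05 in control and 6.50, 6.43 and 6.37 in treated cells. Here too the lowest treated array was above the highest control array by less than the SD in control and more than that in treated cells (0.11 and 0.066, n = 3 each). The difference was 0.29 (95% confidence interval 0.05 to 0.52), or 1.22-fold, with a range of 0.24 to 0.35 with arrays or replicates left out. *PFKFB2*, the heart form, had values of 6.76, 7.09 and 7.13 in control and of 7.20, 7.21 and 7.12 in treated cells. Here control replicate 1 was the low array, the groups overlapped, and the difference of 0.18 (95% confidence interval −0.10 to 0.46) was 0.05 without replicate 1. *PFKFB3*, the inducible form with the strongest kinase activity, was at 7.07, 7.04 and 7.04 in control and 7.02, 7.13 and 7.05 in treated cells, with a difference of 0.01 (95% confidence interval −0.21 to 0.24). Set against *PFKFB3* on the same array, *PFKFB4* was higher in treated cells by 0.30 and *PFKFB1* by 0.27, and in both cases the groups did not overlap.

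**Figure D2:**
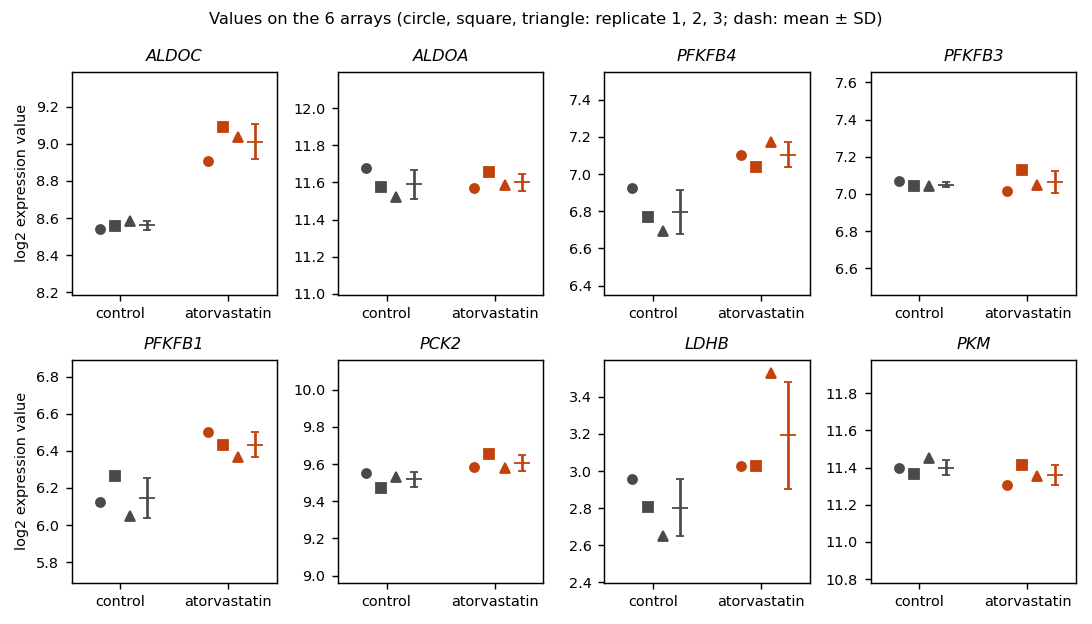
Log2 values on each array (y axis, the same span of 1.2 units in every panel) for 8 enzyme genes in control (grey) and atorvastatin-treated cells (orange), with the mean and SD of 3 arrays. *ALDOC*, *PFKFB4* and *PFKFB1* are apart between groups, *LDHB* is apart by little with 1 high array, *PCK2* is higher by 0.09, and *ALDOA*, *PFKFB3* and *PKM* overlap.

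At the entry of glucose, differences were small. *HK2*, the inducible hexokinase of tumours and muscle, had log2 values of 8.37, 8.56 and 8.53 in control and 8.62, 8.55 and 8.61 in treated cells. Its groups overlapped through control replicate 2 and atorvastatin replicate 2, and the difference was 0.11 (95% confidence interval −0.14 to 0.35). It depended on control replicate 1, the lowest array, and was 0.0469 without that array and 0.0318 without replicate 1. The difference was 0.004 for *HK1*, the broadly expressed hexokinase, which was dim at 5.05, and 0.03 for *HK3*, the hexokinase of leukocytes. *GCKR* encodes the protein that holds glucokinase inactive in the hepatocyte nucleus, and its difference was 0.01. *GPI*, which turns glucose 6-phosphate into fructose 6-phosphate, was at 10.65, 10.63 and 10.64 in control and 10.65, 10.71 and 10.64 in treated cells, a difference of 0.03 (95% confidence interval −0.19 to 0.25). The 3 genes of phosphofructokinase, the committing step of glycolysis, had differences of 0.04 for the liver form *PFKL*, 0.03 for the muscle form *PFKM* and 0.05 for the platelet form *PFKP*. All 3 intervals held 0, and the widest was that of *PFKM* (−0.24 to 0.29), which was dim.

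In the lower part of glycolysis, the enolase genes had differences close to 0. *ENO1*, the main enolase, had log2 values of 12.16, 12.24 and 12.22 in control and 12.27, 12.32 and 12.17 in treated cells, with a difference of 0.05 (95% confidence interval −0.18 to 0.28). *ENO2*, the neuronal enolase, and *ENO3*, the muscle enolase, had differences of 0.01 and −0.001. *ENO3* was at 7.13, 7.21 and 7.07 in control and 7.17, 7.18 and 7.06 in treated cells, so the groups covered the same range. *PGAM2*, the muscle phosphoglycerate mutase, was dim, with 5.75, 5.53 and 5.55 in control and 5.74, 5.60 and 6.17 in treated cells. Its difference of 0.23 rested on atorvastatin replicate 3 and was 0.06 without that array and 0.03 without replicate 3.

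The last step of glycolysis is carried by pyruvate kinase, and its 2 genes had differences of opposite sign that both lay within error. *PKM*, the gene of the muscle and tumour forms, had log2 values of 11.40, 11.37 and 11.45 in control and 11.31, 11.41 and 11.36 in treated cells. The difference of −0.05 (95% confidence interval −0.27 to 0.18) was the lowest of the 30 members and stayed below 0 with every array or replicate left out (−0.09 to −0.02). *PKLR*, the gene of the liver and erythrocyte forms and a known target of the glucose-sensing factor ChREBP, had 7.02, 6.85 and 6.83 in control and 6.97, 6.98 and 7.18 in treated cells. Its groups overlapped through control replicate 1, and the difference was 0.15 (95% confidence interval −0.12 to 0.42). It was 0.0776 without atorvastatin replicate 3, 0.0417 without replicate 3 and 0.2473 without replicate 1. *PKLR* minus *PKM* on the same array was higher by 0.19 in treated cells, with overlapping groups.

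*LDHB*, the lactate dehydrogenase subunit of heart, was dim, and its difference, the second largest of the list, depended in part on 1 array. Its log2 values were 2.96, 2.80 and 2.65 in control and 3.03, 3.03 and 3.53 in treated cells. Atorvastatin replicate 3 stood above the rest, and the other treated arrays were above control replicate 1 by less than the SD of either group (0.15 in control and 0.29 in treated cells, n = 3 each). The difference of 0.39 (95% confidence interval −0.0009 to 0.78) was 0.23 without atorvastatin replicate 3, 0.15 without replicate 3 and 0.30 without both arrays of smaller spread, an alternative chosen after seeing the data.

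The same 2 arrays were high in most dim members. Of the 7 members with a mean log2 value under 6, which were *FBP1*, *HK1*, *LDHB*, *PCK1*, *PDK4*, *PFKM* and *PGAM2*, 6 had control replicate 1 as the highest control array and, in the same 6, atorvastatin replicate 3 as the highest treated array. The exception was *PDK4*. Among the 23 brighter members, 3 showed both. Over all clusters, control replicate 1 was the highest control array in 76.0% of the dim and 38.1% of the brighter ones, and atorvastatin replicate 3 the highest treated array in 68.4% and 28.6%. Without both of these arrays, an alternative chosen after seeing the data, the differences were 0.1733 for *FBP1*, 0.0804 for *HK1*, 0.0445 for *PCK1*, 0.0751 for *PDK4*, 0.0269 for *PFKM* and 0.1324 for *PGAM2*. All 7 dim members, *LDHB* included, were then still higher on average in treated cells, with 2 arrays left in each group. The part of the arrays' spread in each difference was not tested. When the values were quantile normalized again, the difference was 0.38 for *LDHB* and 0.21 for *PGAM2*.

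**Figure D3:**
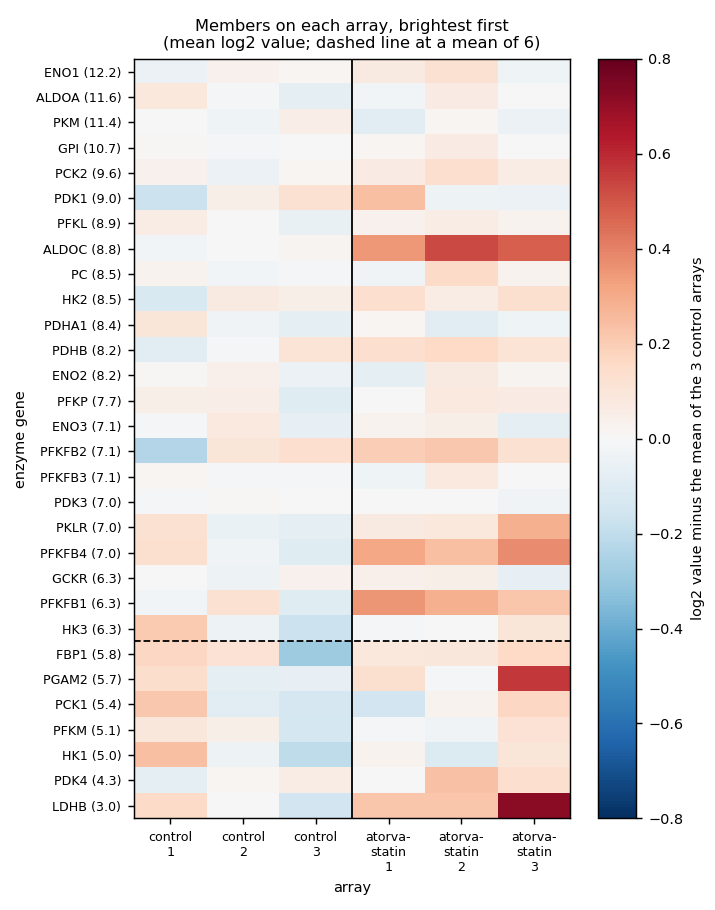
Log2 value of each of the 30 enzyme genes on each of the 6 arrays (columns) as a difference from the mean of the 3 control arrays (colour, red higher and blue lower), with genes ordered by mean level and the dashed line at a mean of 6. *ALDOC*, *PFKFB4* and *PFKFB1* are red on all 3 atorvastatin arrays, and others above the line, such as *PFKFB2* and *PDHB*, are so more faintly. Below the line the red cells mostly gather on control replicate 1 and atorvastatin replicate 3, though *LDHB* is red on all 3 atorvastatin arrays.

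Pyruvate dehydrogenase, which commits pyruvate to acetyl-CoA, was measured by 2 subunits and 3 of the kinases that switch it off. *PDHA1*, the catalytic E1 alpha subunit, was at 8.54, 8.41 and 8.37 in control and 8.46, 8.35 and 8.41 in treated cells, with a difference of −0.04 (95% confidence interval −0.26 to 0.19). *PDHB*, its partner E1 beta, was at 8.02, 8.09 and 8.22 in control and 8.24, 8.27 and 8.22 in treated cells. Its difference was 0.13 (95% confidence interval −0.10 to 0.37), and the groups overlapped through control replicate 3. *PDK3*, the kinase with the least spread between arrays, was at 6.993, 7.011 and 6.996 in control and 7.003, 7.003 and 6.972 in treated cells, a difference of −0.01 (95% confidence interval −0.23 to 0.21). *PDK1*, a hypoxia-induced kinase, had a difference of 0.05, with a wider spread (SD 0.16 and 0.17, n = 3 each). *PDK4*, the kinase induced by fasting, was dim, with 4.15, 4.24 and 4.28 in control and 4.22, 4.46 and 4.36 in treated cells, and its difference of 0.12 (95% confidence interval −0.11 to 0.35) ranged from 0.0646 to 0.1836 with arrays or replicates left out.

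Among the 4 measured members of gluconeogenesis, *PCK2* alone had groups that did not overlap. Its atorvastatin arrays were all above its control arrays, as in 4.57% of all clusters. *PCK2*, the mitochondrial phosphoenolpyruvate carboxykinase, had log2 values of 9.55, 9.47 and 9.53 in control and 9.58, 9.65 and 9.58 in treated cells. The lowest treated array was above the highest control array by less than the SD within a group (0.042 in each, n = 3 each), and the difference was 0.09 (95% confidence interval −0.14 to 0.31), or 1.06-fold. *PCK1*, the cytosolic enzyme that glucagon induces in liver, was dim, with 5.62, 5.32 and 5.27 in control and 5.25, 5.43 and 5.57 in treated cells. Its groups covered the same range, and the difference of 0.01 (95% confidence interval −0.33 to 0.36) was −0.0039 when the values were quantile normalized again. *PC*, the pyruvate carboxylase that feeds oxaloacetate to gluconeogenesis and to the citric acid cycle, had a difference of 0.05 (95% confidence interval −0.18 to 0.28). *FBP1*, the liver fructose bisphosphatase that opposes phosphofructokinase, was dim and had 5.96, 5.91 and 5.51 in control and 5.88, 5.88 and 5.95 in treated cells, with a difference of 0.11 (95% confidence interval −0.20 to 0.42) that was −0.05 without replicate 3.

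With 3 arrays per group and a replicate block that leaves 2 residual degrees of freedom, precision limits what these differences show. In the 23 brighter members the 95% interval from the fit with this block reached from 0.218 to 0.326 log2 units to either side of the estimate. It lay inside 1.5-fold in either direction in 22 of the 23, and the exception was *ALDOC*, whose upper bound was 1.60-fold. In 15 of them it lay inside 1.25-fold. For the 7 dim members the interval describes the signal of the probes and gives no bound on the change of the transcript, since a signal near background can understate a fold. The difference itself was smaller than 0.1 in 16 of the 23 brighter members and in 3 of the 7 dim ones. The median size of the difference was 0.05 in the members and also 0.05 over all clusters.

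**Figure D4:**
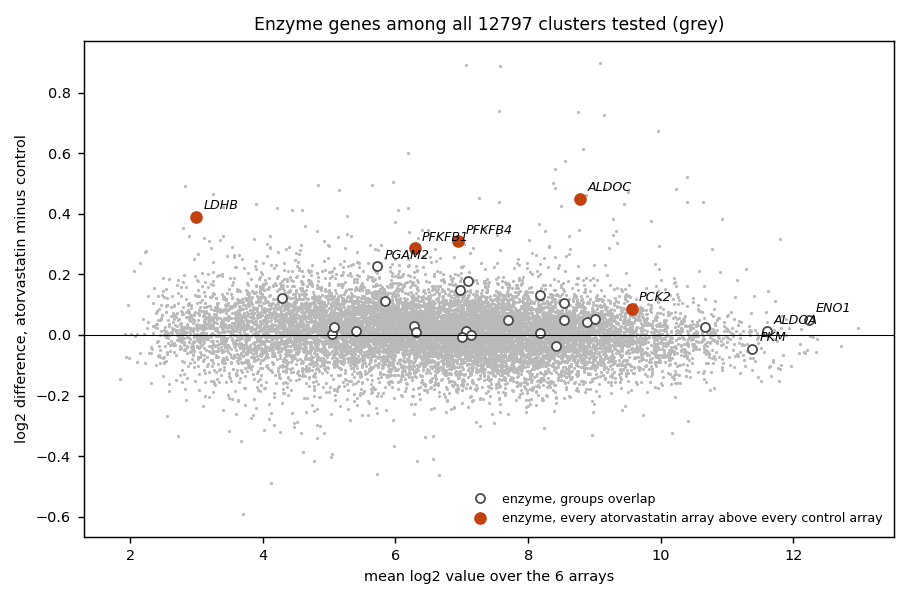
Log2 difference between atorvastatin-treated and control cells (y axis) against the mean log2 value over the 6 arrays (x axis) for the 12797 clusters tested (grey) and the 30 enzyme genes (circles). Most enzyme genes lie near 0, *ALDOC* stands at 0.45 with 25 clusters above it, and *LDHB* lies at the dim end.

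Genes around the pathway were read from lists chosen with earlier results known, and 0 of their measured members passed the correction (limma, adjusted *p* = 1 for each gene named here from lists other than the sterol pathway). Among 11 genes of glucose transport and release, 7 were higher on average, where 55.8% of all clusters were. In 1 of the 11 every atorvastatin array was above every control array, where 4.57% of all clusters showed this. *G6PC1*, the glucose 6-phosphatase that releases glucose from hepatocytes, was dim and went from 5.62 to 5.43, a difference of −0.19 (95% confidence interval −0.49 to 0.12) that was −0.2066 without both arrays of smaller spread. Among 14 further glycolysis genes the differences ran from −0.11 (*MINPP1*, an inositol phosphatase) to 0.21 (*LDHAL6B*, a testis lactate dehydrogenase gene, dim and at 0.3091 without both arrays of smaller spread). In 0 of them were the groups apart, where 4.57% of all clusters had every atorvastatin array above and 2.68% every one below. Of 7 genes of pyruvate entry and the dehydrogenase complex, 5 were higher on average, and *PDHX*, a component of the complex, had a difference of −0.12.

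Branches that leave or join glycolysis showed differences of similar size. Their counts stand beside 55.8% of all clusters higher on average, 4.57% with every atorvastatin array above every control array and 2.68% with every one below. Of 7 genes of the pentose phosphate pathway, which supplies NADPH for lipid synthesis, 6 were higher on average, and *PGD*, its 6-phosphogluconate dehydrogenase, had every atorvastatin array above every control array with a difference of 0.18 (95% confidence interval −0.04 to 0.41). *PGD* is named by the study from RNA-seq of the same samples. Of 14 glycogen genes 10 were lower on average (median −0.03), with *PHKA2*, a phosphorylase kinase subunit, at −0.10 and every treated array below every control array, and *GBE1*, the branching enzyme, at 0.14 and every treated array above. Of 17 genes of the citric acid cycle 15 were higher on average (median 0.03), and *OGDH*, of the oxoglutarate dehydrogenase complex, and *IDH1*, the cytosolic isocitrate dehydrogenase, had groups that did not overlap, with differences of 0.17 and 0.13. The 5 measured genes of fructose, mannose and hexosamine entry had differences between −0.08 and 0.04.

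Among 27 regulators the median difference was 0.01. Every atorvastatin array was above every control array in 1 of them and below in 2, where 4.57% and 2.68% of all clusters showed this. *MLXIPL*, which encodes ChREBP, went from 8.58 to 8.73, without overlap of the groups (difference 0.16, 95% confidence interval −0.07 to 0.38). *PPARGC1A*, which encodes a coactivator of gluconeogenic genes, went from 8.26 to 8.10 with every treated array below every control array (difference −0.15, 95% confidence interval −0.40 to 0.09). Of 11 other targets of the hypoxia-inducible factor, a known activator of glycolytic genes, 7 were lower on average (median −0.03), where 55.8% of all clusters were higher. This list left out the 30 enzyme genes, so it does not describe the targets of the factor as a whole. In it *BNIP3* had the lowest difference, −0.325 (95% confidence interval −0.83 to 0.18), with overlapping groups. For comparison, the 14 measured genes of the sterol pathway, the route that the drug blocks, had a median difference of 0.45, against 0.05 for the 30 enzyme genes. This list and the members were not tested against each other.

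**Figure D5:**
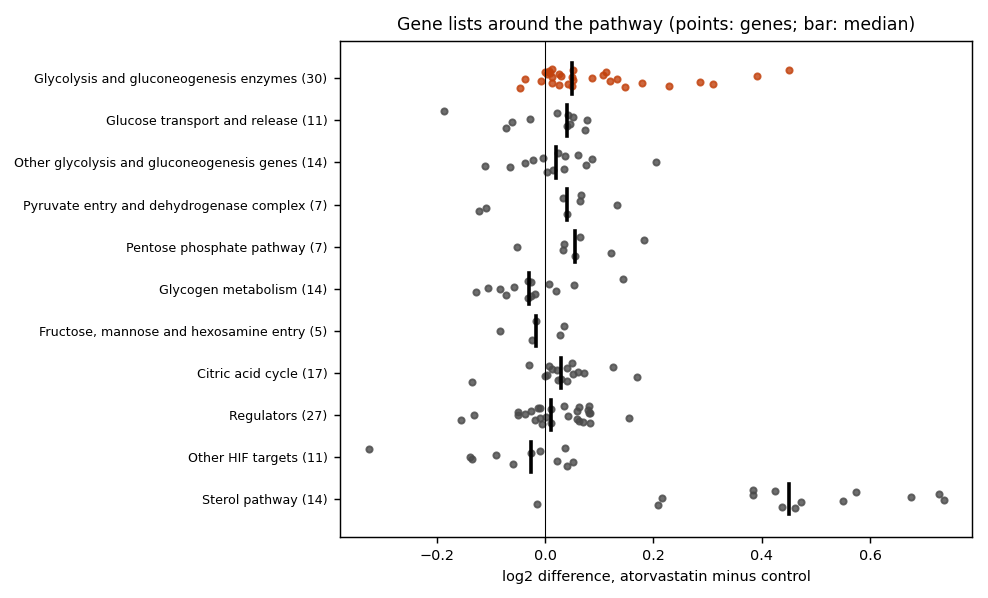
Log2 difference between atorvastatin-treated and control cells (x axis) for the measured genes of each list (points, number of genes in brackets) with the list's median (bar). The enzyme genes of glycolysis and gluconeogenesis (orange) have a median of 0.05, and the sterol pathway has one of 0.45.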

How the data were processed

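Total RNA of 6 HepG2 samples was hybridized to GeneChip Human Exon 1.0 ST arrays. The authors ran RMA in Partek Genomics Suite, restricted the data to core probe sets and took the mean of these per gene, so that the deposited log2 values stand for whole genes, 1 per transcript cluster and array, and not for exons or isoforms. Software versions are not given in the sources used here. Build hg18 is named in the processing notes, and clusters are given here without coordinates. Of 16634 clusters, the 12797 with 1 gene symbol were tested. A further 1934 with several symbols and 1903 with none entered 1 alternative. All 30 measured members matched RefSeq by Entrez ID and symbol, each with 1 cluster. Promoter windows come from RefSeq (GRCh38.p14), of which the 250 bases before the start were searched.

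Control and treated arrays were compared in limma 3.58.1 (R 4.3.3, lmFit and eBayes) with replicate number as a block, which follows the paired test of the methods and leaves 2 residual and 4.58 prior degrees of freedom. Benjamini-Hochberg adjustment at 5% ran over all clusters tested. The fit was run on simulated arrays with independent normal noise to check that it returned planted differences. These arrays held no replicate effect and no unequal spread between arrays, so the run does not cover either. The number of arrays limits the precision. The members and all gene lists were chosen with earlier results of these data known. Values on every array were given for members without overlap between groups, the 4 with the smallest *p* in each direction, and *PKM*, *PKLR*, *PCK1*, *HK2* and *ALDOC*, with further members shown for comparison. From the other lists the 2 genes with the smallest *p* could be named, and the marker genes and the range ends were named after their values were seen. The alternatives were the fit without the block, the methods' paired t-test and its form without pairing, a trended and robust variance, only clusters with a mean of at least 6, median centring, repeated quantile normalization, every cluster, and each replicate or array left out. Figures were drawn with matplotlib 3.10.9 in Python 3.11.15.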

Additional observations from a re-analysis of the deposited data

Results flagged for a closer look

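One cluster outside the comparison of single-symbol clusters had every atorvastatin array above every control array. It carries the symbols *EDARADD* and *ENO1*, so its value cannot be assigned to either gene. Its log2 values were 6.49, 6.56 and 6.58 in control and 6.59, 6.72 and 6.60 in treated cells, with a difference of 0.093 (95% confidence interval −0.14 to 0.32, limma, adjusted *p* = 1 over every cluster).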

How the results depend on the processing

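Over all clusters, the count past the correction, 0 with the block, was 4 without the replicate block, 21 with a trended and robust variance, and 0 to 32 with arrays or replicates left out. Replicates were left out with the block and single arrays without it. The members past it were 0 in all of these except with the trended and robust variance, which gave 1, *ALDOC*. The median difference of the members was between 0.0264 and 0.0879 in the alternatives, and that of all clusters between −0.016 and 0.0504. Of the 30 members, 23 were higher on average after repeated quantile normalization and 19 to 26 with arrays or replicates left out. Like-numbered arrays deviated from their groups with correlations of −0.46, 0.07 and −0.56, and 0 of 6 arrays correlated best with their own number. The arrays of smaller spread carry different replicate numbers, so these correlations cannot show whether the numbers pair the arrays. The fit without the replicate block gave the same differences, with adjusted *p* = 0.188 for *ALDOC* and 1 for *PFKFB4*, *PFKFB1*, *LDHB* and *PCK2* (limma). Over all alternatives the adjusted *p* of *ALDOC* ran from 0.029 to 1 (limma, and the methods' t-tests).

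Of the 30 members, 15 kept their direction in all alternatives and 15, all of them with a difference within 0.12 of 0, did not. After repeated quantile normalization *HK1* was at −0.0165, *GCKR* at −0.0014 and *PCK1* at −0.0039. Without both arrays of smaller spread, chosen after seeing the data, *ENO3* was at 0.0296 and *PDHA1* at 0.0125. With arrays or replicates left out, the differences ran from −0.142 to 0.125 for *HK1*, −0.0901 to 0.154 for *HK3*, −0.031 to 0.0633 for *GCKR*, −0.0873 to 0.0892 for *PFKM*, −0.0046 to 0.0945 for *PFKP*, −0.0228 to 0.0451 for *PFKFB3*, −0.0223 to 0.0717 for *ALDOA*, −0.0234 to 0.0501 for *ENO2*, −0.0327 to 0.0376 for *ENO3*, −0.0722 to 0.0136 for *PDHA1*, −0.131 to 0.163 for *PDK1*, −0.016 to 0.0027 for *PDK3*, −0.0092 to 0.102 for *PC*, −0.13 to 0.206 for *PCK1* and −0.0524 to 0.209 for *FBP1*. The cause of these turns was not tested.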

Other observations

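*PDK2*, a pyruvate dehydrogenase kinase, had no cluster of its own. The 2 clusters annotated with *PDK2* and *SAMD14* had log2 values of 8.74, 8.78 and 8.79 in control and 8.71, 8.88 and 8.78 in treated cells for the brighter one, and 6.49, 6.28 and 6.15 against 6.30, 6.23 and 6.50 for the other. Their differences were 0.02 (95% confidence interval −0.21 to 0.25) and 0.04 (95% confidence interval −0.28 to 0.36), and the groups overlapped in both.

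For *PFKM*, a second cluster that also carries *SENP1* was at 8.78, 8.90 and 8.96 in control and 8.80, 8.81 and 8.76 in treated cells, a difference of −0.09 (95% confidence interval −0.33 to 0.15), where the cluster of *PFKM* alone was dim and had a difference of 0.03. The clusters shared by *ALDOA* with its pseudogene *ALDOAP2*, by *ENO1* with *TMEM11* and by *PDHA1* with *MAP3K15* had differences of 0.08, −0.02 and 0.02, each with overlapping groups.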
